A study of Saccharomyces cerevisiae with 12 samples.

Results

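Nitrogen catabolite repression is the system by which budding yeast keeps genes for poor nitrogen sources low while a good one is at hand. The 10 genes described here were chosen by name from the 6691 genes of the count table, not by a cutoff on their values. Earlier results of these data were known at that time. *GAP1* (YKR039W), *MEP1* (YGR121C), *MEP2* (YNL142W), *MEP3* (YPR138C), *DAL5* (YJR152W) and *PUT4* (YOR348C) encode plasma membrane permeases. *DAL80* (YKR034W), *GLN3* (YER040W) and *GAT1* (YFL021W) encode GATA-type zinc finger factors, and *URE2* (YNL229C) encodes the protein that holds Gln3 back. All 10 genes passed the filter on low counts, which asked for at least 10 counts in at least 3 libraries.

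RNA was sequenced from *Saccharomyces cerevisiae* W303A in 4 groups of 3 libraries, 12 in all, and read as counts per gene. *TRA1* cells carried the wild-type allele and *tra1Q3* cells an allele with 3 arginines of the PI3K domain changed to glutamine. Tra1 is a pseudokinase subunit shared by the SAGA and NuA4 complexes, which coactivate transcription. Each genotype was collected at day 0, before chronological aging, and at day 3, in stationary phase. Both genotypes were MATa with the alleles ura3-1, trp1-1, leu2-3, his3-11, can1-100 and ade2-1, and according to the methods both had a *URA3*-FLAG-tagged *TRA1* or *tra1Q3* allele selected as HIS+ and carried the plasmid YCplac111-*DED1pr-YHR100*. No further treatment was given, so aging in culture and the *tra1Q3* allele are the 2 factors of the design. Growth phase and nutrient supply change between the days as well, and in this design they cannot be told apart from age. The labels describe mid-log cultures in synthetic complete medium, whereas the methods describe saturated cultures diluted and regrown without leucine, and neither names the nitrogen source. The strain list writes the same tagged *TRA1* genotype for both strains, so that the allele of the *tra1Q3* libraries rests on the labels and the methods. The study calls the replicates biological, while the labels do not say that they came from separate cultures, and the p-values measure the spread between these libraries.

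In yeast, the activators Gln3 and Gat1 bind GATA sequences upstream of nitrogen-regulated genes, and Dal80 and its paralog Gzf3 compete for the same sequences as repressors. Under good nitrogen supply the kinase complex TORC1 and Ure2 keep Gln3 in the cytoplasm, and when supply falls the activators enter the nucleus. *GAT1* and *DAL80* are themselves transcribed under GATA control, so the regulators form a circuit, while permease activity is also set after transcription by sorting and ubiquitination.

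The upstream regions are shown first because GATA elements are the shared feature of this regulon. The 6-base element GATAAG, on either strand (CTTATC on the other), was searched from 500 to 201 bases before the first coding base in the R64 reference. Of 6658 nuclear genes with this window, 924 (13.9%) held at least 1 match, and 8 of the 10 genes did. At least 2 matches occurred in 1.26% of genes and in 7 of the 10, and at least 4 in 0.120% of genes, which is 8 genes, 4 of them among the 10. *MEP2* held 7 matches, *MEP3* 5, *GAP1* and *GAT1* 4 each, *DAL80* 3, *MEP1* and *DAL5* 2 each and *GLN3* 1. *PUT4* and *URE2* held none in this window. Windows reaching to the first coding base gave the same 8 genes with a match, beside 22.6% of all genes, and *DAL5* then held 3. From 250 bases before to 50 after the first coding base, 6 of the 10 genes held a match, beside 14.4% of genes, and 1 held at least 2, beside 1.55%. The more distant window was chosen with these counts known. Consecutive matches that share a base pair run, written GATAAG joined to the next ATAAG, were counted separately. A match is a description of the letters and is no evidence of binding.

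The windows of the 5 genes with at least 3 matches are printed 5′ to 3′ on the gene's own strand, with matches in capitals. They lie at chrXI:514563-514862 (*GAP1*, plus strand), chrXIV:356953-357252 (*MEP2*, plus), chrXVI:812654-812953 (*MEP3*, minus), chrXI:506398-506697 (*DAL80*, plus) and chrVI:95466-95765 (*GAT1*, plus).
GAP1: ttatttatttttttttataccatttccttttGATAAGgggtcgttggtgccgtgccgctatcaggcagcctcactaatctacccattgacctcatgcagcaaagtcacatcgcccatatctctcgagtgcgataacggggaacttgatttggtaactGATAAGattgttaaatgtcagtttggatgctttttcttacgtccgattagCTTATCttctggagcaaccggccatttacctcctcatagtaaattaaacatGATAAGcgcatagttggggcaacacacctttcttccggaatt
MEP2: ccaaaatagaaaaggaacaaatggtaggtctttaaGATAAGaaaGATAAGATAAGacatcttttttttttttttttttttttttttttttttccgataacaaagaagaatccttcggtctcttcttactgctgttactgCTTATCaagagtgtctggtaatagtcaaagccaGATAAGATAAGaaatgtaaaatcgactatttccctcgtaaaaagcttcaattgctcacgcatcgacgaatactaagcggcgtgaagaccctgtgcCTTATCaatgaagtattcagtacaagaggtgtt
MEP3: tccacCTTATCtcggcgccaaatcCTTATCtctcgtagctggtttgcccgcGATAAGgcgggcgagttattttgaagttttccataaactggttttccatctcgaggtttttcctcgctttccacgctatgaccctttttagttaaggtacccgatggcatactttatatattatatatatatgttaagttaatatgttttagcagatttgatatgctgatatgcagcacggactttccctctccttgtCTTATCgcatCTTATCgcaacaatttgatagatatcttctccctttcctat
DAL80: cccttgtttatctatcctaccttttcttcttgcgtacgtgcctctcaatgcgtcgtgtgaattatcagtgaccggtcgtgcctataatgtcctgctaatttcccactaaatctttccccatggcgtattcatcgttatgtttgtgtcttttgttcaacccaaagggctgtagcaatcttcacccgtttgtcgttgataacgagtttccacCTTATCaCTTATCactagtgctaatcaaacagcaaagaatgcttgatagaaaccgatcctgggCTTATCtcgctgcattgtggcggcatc
GAT1: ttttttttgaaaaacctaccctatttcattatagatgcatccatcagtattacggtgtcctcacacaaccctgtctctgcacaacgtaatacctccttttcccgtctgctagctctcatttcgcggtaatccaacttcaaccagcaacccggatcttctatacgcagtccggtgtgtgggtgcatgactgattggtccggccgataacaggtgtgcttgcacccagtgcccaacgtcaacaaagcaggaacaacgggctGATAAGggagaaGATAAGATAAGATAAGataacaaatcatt

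**Figure D1:**
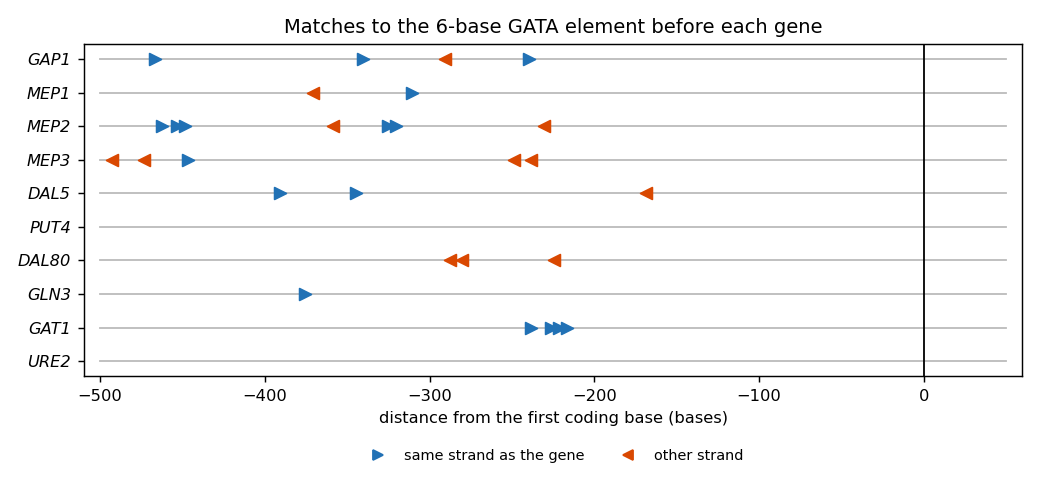
Matches to the GATA element before each of the 10 genes. The x axis is the distance in bases from the first coding base, shown as the vertical line, and each triangle is 1 match, blue on the gene's strand and orange on the other. *MEP2* has 7 matches between 500 and 201 bases before the start, whereas *PUT4* and *URE2* have none.

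The 3 *DAL80* matches all lie on the other strand, while the 4 of *GAT1* sit in a run on the gene's own strand, 3 of them overlapping. On R64 the coding sequences of *GAP1* (515063-516871) and *DAL80* (506898-507707) both lie on chromosome XI, and those of *MEP2* (357453-358952) and *URE2* (219137-220201) on chromosome XIV. *MEP1* lies on chromosome VII (731449-732927), *MEP3* on XVI (810984-812453), *DAL5* on X (719666-721297), *PUT4* on XV (986899-988782), *GLN3* on V (229795-231987) and *GAT1* on VI (95966-97498), so the 10 genes are not 1 cluster.

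Total counts ran from 20662125 to 28079682 per library. Values per library are given below as normalized counts, scaled by TMM to a common library size. Replicates differed by a median chi-square ratio (1 is counting error alone) of 2.79 to 4.35 within 3 groups, but 57.0 and 70.6 for the pairs of aged *TRA1* replicate 2, against 10.7 for replicates 1 and 3. The *TRA1* transcript itself averaged 16039 and 23253 at day 0 and 14124 and 44160 at day 3 in *TRA1* and *tra1Q3*, which cannot check a substitution allele. The 6 MATa genes were detected in every group, summing to 27585 to 29444 in *TRA1* and 62282 to 65373 in *tra1Q3* at day 0, and to 7397 to 8481 and 30456 to 37912 at day 3. The 4 genes that mark alpha cells were also detected in every group, summing to 1156 to 1203 in *TRA1* and 19629 to 21610 in *tra1Q3* at day 0, and to 2691 to 3136 and 10985 to 13443 at day 3. The part of this mating-type difference in the results below was not tested. In bulk RNA, fewer cells with a transcript and less of it per cell cannot be told apart.

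Genotypes were first compared at day 0, then at day 3, where a gene was called at an adjusted p of 0.05 or less and an absolute log2 difference over 1. At day 0 none of the 10 genes was called with edgeR or DESeq2, beside 6.07% of 6126 genes tested with edgeR (3.31% higher and 2.76% lower). At an unadjusted p under 0.05, 7 of the 10 passed, beside 70.9% of all genes, and at an adjusted p of 0.05 alone again 7, beside 68.7%, so neither count is a result about the 10 genes. At day 3, 6 of the 10 were called higher in *tra1Q3*, beside 16.4% of 6208 genes, and none was called lower, beside 15.6% (32% in both directions). The 6 were *GAP1*, *MEP2*, *MEP3*, *DAL5*, *PUT4* and *DAL80*. At an adjusted p alone 8 passed, with *MEP1* and *URE2* lower in *tra1Q3*, beside 71.5% of genes, though not under every alternative. The median log2 difference of the 10 genes was 1.12 at day 3, beside -0.02 over all genes, and -0.17 at day 0, beside 0.01.

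*GAP1*, the general amino acid permease, had the highest level per kilobase of the 10 genes in every group. At day 0 the libraries held 44113, 41720.5 and 41456 normalized counts of *GAP1* in *TRA1* and 30559, 34979 and 30913 in *tra1Q3*. At day 3 they were 39184, 17368 and 26931 in *TRA1* and 85004, 79559 and 82915 in *tra1Q3*. The order of the genotypes thus turned between the days, without overlap on either day, and the aged *TRA1* libraries were spread more widely than the others. *GAP1* was 1.32-fold lower in *tra1Q3* at day 0 (log2 -0.40, SE 0.052, adjusted p = 2.09e-06 by edgeR). With all 12 libraries in 1 edgeR fit, this day 0 value had an SE of 0.22 and an adjusted p of 0.156. *GAP1* was 3.17-fold higher in *tra1Q3* at day 3 (log2 1.67, SE 0.29, adjusted p = 0.00149 by edgeR).

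The MEP genes encode the ammonium permeases, of which Mep2 also acts as a nitrogen sensor for pseudohyphal growth. *MEP2* had 10715, 9668 and 10702 normalized counts in *TRA1* and 6485, 7881 and 6117 in *tra1Q3* at day 0. At day 3 it had 7568, 4086 and 5099 in *TRA1* and 14742, 11076 and 16376 in *tra1Q3*. As for *GAP1*, every *tra1Q3* library was below every *TRA1* library at day 0 and above every one at day 3. The log2 difference went from -0.60 (SE 0.069, adjusted p = 4.00e-07) to 1.43 (SE 0.26, adjusted p = 0.00173 by edgeR), or 2.70-fold at day 3.

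*MEP3* gave another picture. At day 0 it had 5504, 5167 and 5344 normalized counts in *TRA1* and 5224, 5135 and 5037 in *tra1Q3*, and these ranges overlapped. At day 3 it had 6416, 5471 and 5104 in *TRA1*, near the day 0 level, but 18291, 17535 and 18392 in *tra1Q3*. The genotypes thus separated at day 3, by 3.42-fold (log2 1.77, SE 0.12, adjusted p = 1.59e-05 by edgeR), with a difference of -0.06 (SE 0.039, adjusted p = 0.213) at day 0.

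*MEP1* had lower counts in the *tra1Q3* libraries on both days. It had 3232, 3205 and 3206 normalized counts in *TRA1* and 1722, 1829 and 1821 in *tra1Q3* at day 0, and 11001, 5579 and 9336 against 4912, 4641 and 5243 at day 3. The ranges did not overlap on either day, and all 6 aged libraries were above all 6 libraries of day 0. The log2 difference was -0.84 (SE 0.039, adjusted p = 2.03e-12) at day 0 and -0.71 (SE 0.23, adjusted p = 0.0282 by edgeR) at day 3, under the size threshold each time. The day 3 test did not hold up: in 5 of the 6 fits that left out 1 library the adjusted p was 0.0630 to 0.0949, and only without aged *TRA1* replicate 2 was it smaller. The coding sequences of *MEP1* and *MEP3* were identical at 71.5% of aligned bases, those of *MEP2* and *MEP3* at 62.4% and those of *MEP1* and *MEP2* at 60.4%. All 100-base windows of the 10 genes were unique in the genome, so reads of the MEP genes could be told apart.

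*PUT4*, the high-affinity proline permease, was higher in *tra1Q3* on both days. It had 5978, 4921 and 5499 normalized counts in *TRA1* and 9907, 11108 and 9909.8 in *tra1Q3* at day 0, and 15906, 7233 and 9979 against 22802, 23608 and 25713 at day 3. The aged *TRA1* libraries ran from below to above the range of the day 0 *tra1Q3* libraries, and the aged *tra1Q3* libraries were above all others. On the log2 scale *PUT4* differed by 0.92 (SE 0.060, adjusted p = 2.35e-10) at day 0 and 1.22 (SE 0.27, adjusted p = 0.00521 by edgeR) at day 3. Without aged *TRA1* replicate 2 the day 3 value was 0.98, under the threshold of 1.

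*DAL5*, the permease for allantoate and ureidosuccinate, had 683, 675 and 776 normalized counts in *TRA1* and 877, 922 and 823 in *tra1Q3* at day 0. At day 3 it had 1102, 1473 and 1083 in *TRA1* and 2333, 2330.0 and 2279 in *tra1Q3*. The genotypes did not overlap on either day, and *DAL5* was the gene of the 6 closest to the threshold. The log2 difference was 0.30 (SE 0.067, adjusted p = 7.31e-04) at day 0 and 1.02 (SE 0.13, adjusted p = 2.74e-04 by edgeR), or 2.03-fold, at day 3. It was 0.96 without aged *TRA1* replicate 1 and 0.95 without replicate 3.

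**Figure D2:**
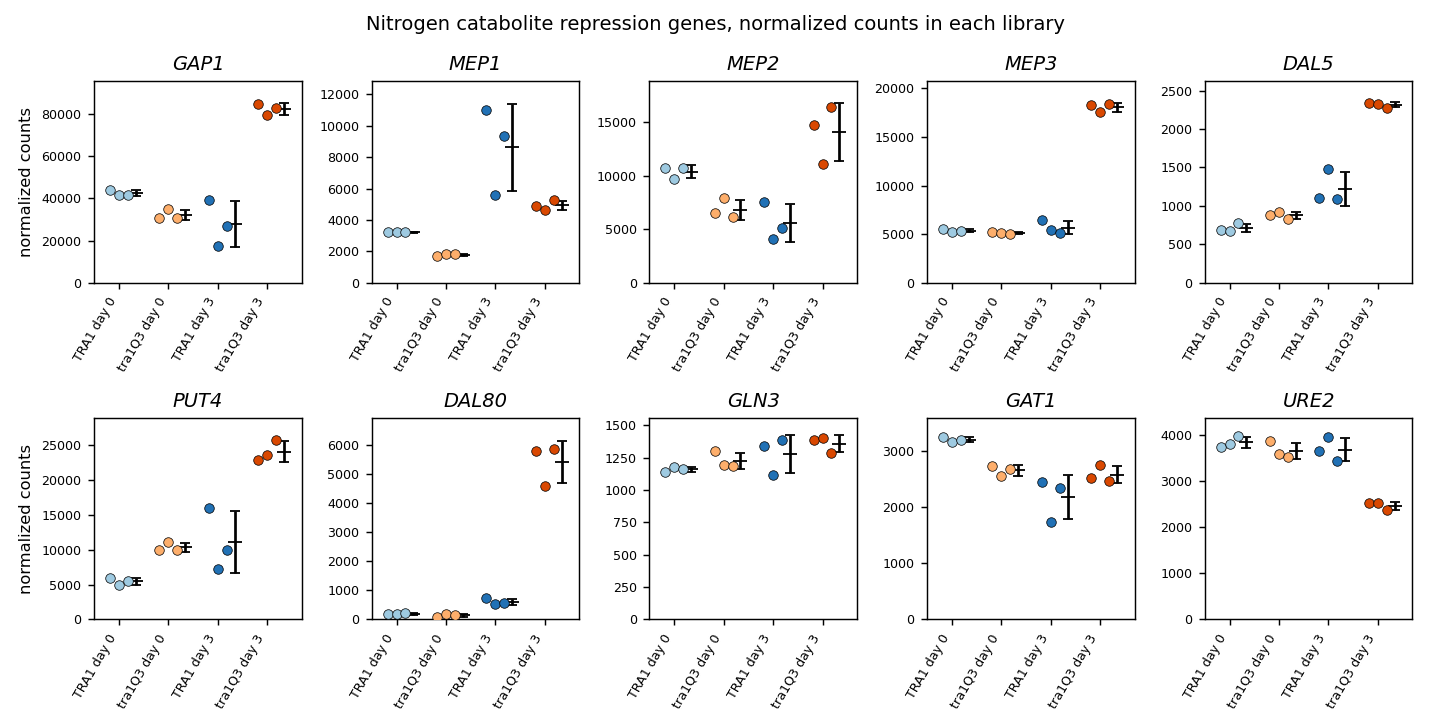
Normalized counts of each of the 10 genes in the 12 libraries, 1 panel per gene, each with its own linear y axis from 0. Points are libraries, and the horizontal mark and bar are the mean and SD of 3. *GAP1*, *MEP2*, *MEP3*, *DAL5*, *PUT4* and *DAL80* stand highest in the 3 aged *tra1Q3* libraries, and *URE2* lowest.

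*DAL80* showed the largest difference of the 10 genes at day 3. This GATA repressor had 180.0, 169 and 221 normalized counts in *TRA1* and 88.2, 179 and 145 in *tra1Q3* at day 0. At day 3 it had 724, 538 and 555 in *TRA1* and 5778, 4586 and 5856 in *tra1Q3*. The genotypes overlapped at day 0 and were far apart at day 3, where the lowest *tra1Q3* library was above the highest *TRA1* library several times over. The log2 difference was 3.26 (SE 0.17, adjusted p = 5.92e-06 by edgeR), which is 9.56-fold, and it was at least 2.97 under every alternative tried. At day 0 it was -0.49 (SE 0.19, adjusted p = 0.0278 by edgeR), but DESeq2 gave an adjusted p of 0.163.

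The day 0 value of *DAL80* moved with single libraries. Without *tra1Q3* replicate 1 it was -0.23 (adjusted p = 0.165 by edgeR), and without *TRA1* replicate 3 it was -0.36 (adjusted p = 0.139). Transcripts of 8 marker genes of aging *TRA1* cultures stood at a median of 0.395% of that level in *tra1Q3* replicate 1, and at 1.32% and 1.26% in replicates 2 and 3, against 0.559% to 0.687% in *TRA1* at day 0. Aged *tra1Q3* cells did not reach that level either, since the 8 markers summed to 456869 to 551327 in aged *TRA1* and 52829 to 55927 in aged *tra1Q3*. The markers were *SIP18*, *MLS1*, *ICL1*, *JEN1*, *ADY2*, *SPG1*, *SPG4* and *POT1*. The study reports *SIP18* and *MLS1* as higher in aged *TRA1* than in aged *tra1Q3* in these same data. This difference is thus partly built into the list and is no independent measure of aging. In *tra1Q3* at day 0 the markers summed to 1709 to 6315, a larger share of the aged *tra1Q3* sum than of the aged *TRA1* sum. The part of the marker difference between the aged genotypes in the day 3 results was not tested. *DAL80* in *tra1Q3* at day 0 stood at 1.63% of its aged *tra1Q3* level in replicate 1 and at 2.68% in replicate 3, with replicate 2 higher than both. With replicate 1 as the only *tra1Q3* library of day 0, the log2 difference of *DAL80* was -1.10, a value whose spread comes from the *TRA1* libraries alone. The part of a trace of aged cells in this value was not tested. *DAL80* also shares 407 of its 810 coding bases with YKR033C on the other strand. Counting ignored strand and could drop reads that overlap both genes, so the counts of *DAL80* may rest on the remaining bases.

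The activators and *URE2* varied less. *GLN3*, which encodes the main activator, had 1142, 1175 and 1160.3 normalized counts in *TRA1* and 1299, 1195 and 1189 in *tra1Q3* at day 0. At day 3 it had 1344, 1113 and 1386 in *TRA1* and 1386, 1405 and 1283 in *tra1Q3*. All 12 libraries thus lay within a narrow range, and the genotypes overlapped at day 3. The log2 value of the difference was 0.09 (SE 0.052, adjusted p = 0.151) at day 0 and 0.18 (SE 0.11, adjusted p = 0.170 by edgeR) at day 3.

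*GAT1*, the other activator, had 3258, 3168 and 3194 normalized counts in *TRA1* and 2733, 2554 and 2691 in *tra1Q3* at day 0, and 2456, 1745 and 2353 against 2530.3, 2762 and 2466 at day 3. The *tra1Q3* libraries were below the *TRA1* libraries at day 0 and just above them at day 3. On the log2 scale *GAT1* differed by -0.27 (SE 0.039, adjusted p = 7.57e-06) at day 0 and 0.34 (SE 0.14, adjusted p = 0.0588 by edgeR) at day 3. The latter passed without aged *TRA1* replicate 1 (0.43, adjusted p = 0.0458) and without replicate 2 (0.20, adjusted p = 0.0151). With all 12 libraries in 1 edgeR fit, the day 0 value of *GAT1* had an adjusted p of 0.0590. *GAT1* shares 650 of its 1533 coding bases with YFL021C-A on the other strand, where the same limit on counting holds.

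*URE2* had 3745, 3796 and 3968 normalized counts in *TRA1* and 3857, 3587 and 3510.0 in *tra1Q3* at day 0. At day 3 it had 3646, 3951 and 3443 in *TRA1* and 2513, 2515 and 2369 in *tra1Q3*. The aged *tra1Q3* libraries were the lowest of the 12, with no overlap with any other group. The log2 difference was -0.48 at day 3 (SE 0.082, adjusted p = 0.00142 by edgeR), or 1.39-fold lower, and -0.07 (SE 0.042, adjusted p = 0.155) at day 0. With a replicate block, where the aged groups share only replicates 2 and 3, the day 3 adjusted p was 0.0631 by edgeR.

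The libraries of the genotypes did not overlap for 7 of the 10 genes at day 0, beside 71.5% of all genes, and 9 at day 3, beside 77.2%. *MEP3*, *DAL80* and *URE2* overlapped at day 0 and *GLN3* at day 3. Both counts are near these shares of all genes, so neither is a result about the 10 genes.

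The change with age was then taken in each genotype from 1 fit of all 12 libraries. In *TRA1* cells 3 of the 10 genes were called higher at day 3, beside 20.1% of 6247 genes, and none lower, beside 19.8% (39.9% in both directions). In *tra1Q3* cells 7 were called higher, beside 22.7%, and none lower, beside 23.4% (46.1% in both directions). At an adjusted p alone 7 genes passed in *TRA1*, beside 81.3% of genes, and 8 in *tra1Q3*, beside 83%. The median log2 change of the 10 genes was 0.12 in *TRA1* and 1.29 in *tra1Q3*, beside 0.03 and -0.01 over all genes. These comparisons use the same libraries as the genotype comparisons and are no independent evidence for them.

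In *TRA1* cells *MEP1* (2.69-fold, log2 1.43, SE 0.18), *PUT4* (2.02-fold, log2 1.01, SE 0.22) and *DAL80* (3.19-fold, log2 1.67, SE 0.21) rose with age, with adjusted p of 1.35e-05, 9.16e-04 and 1.07e-05 by edgeR. *DAL5* rose by less, at log2 0.78 (SE 0.11, adjusted p = 3.47e-05). *GAP1*, *MEP2* and *GAT1* fell by less than the size threshold, at -0.61 (adjusted p = 0.0207), -0.89 (adjusted p = 0.00159) and -0.55 (adjusted p = 4.13e-04 by edgeR). *GAP1* was at -0.94 without aged *TRA1* replicate 1 and -0.35 without replicate 2, and its adjusted p was 0.0546 without *TRA1* day 0 replicate 1. *MEP3* (0.09), *GLN3* (0.14) and *URE2* (-0.06) did not pass, with adjusted p of 0.334, 0.122 and 0.403. Without aged *TRA1* replicate 2, *GLN3* passed at 0.25 (adjusted p = 8.32e-04). Without aged *TRA1* replicate 1, *PUT4* was at 0.66, under the threshold, and *MEP2* at -1.17, past it. *PUT4* was at 0.96 without *TRA1* day 0 replicate 2.

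In *tra1Q3* cells *DAL80* rose 39.8-fold with age (log2 5.31, SE 0.23, adjusted p = 6.08e-10 by edgeR). All 6 permease genes rose too, from 2.06-fold for *MEP2* (log2 1.04, SE 0.21, adjusted p = 4.82e-04) to 3.52-fold for *MEP3* (log2 1.82, SE 0.082, adjusted p = 8.39e-10). *MEP1* rose 2.75-fold, *DAL5* 2.65-fold, *GAP1* 2.57-fold and *PUT4* 2.33-fold. *URE2* fell by 0.57 on the log2 scale (SE 0.065, adjusted p = 4.81e-06), while *GLN3* (0.15, adjusted p = 0.119) and *GAT1* (-0.04, adjusted p = 0.730) did not pass. *MEP2* was at 0.97 without *tra1Q3* day 0 replicate 3 and at 0.92 without aged *tra1Q3* replicate 3.

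**Figure D3:**
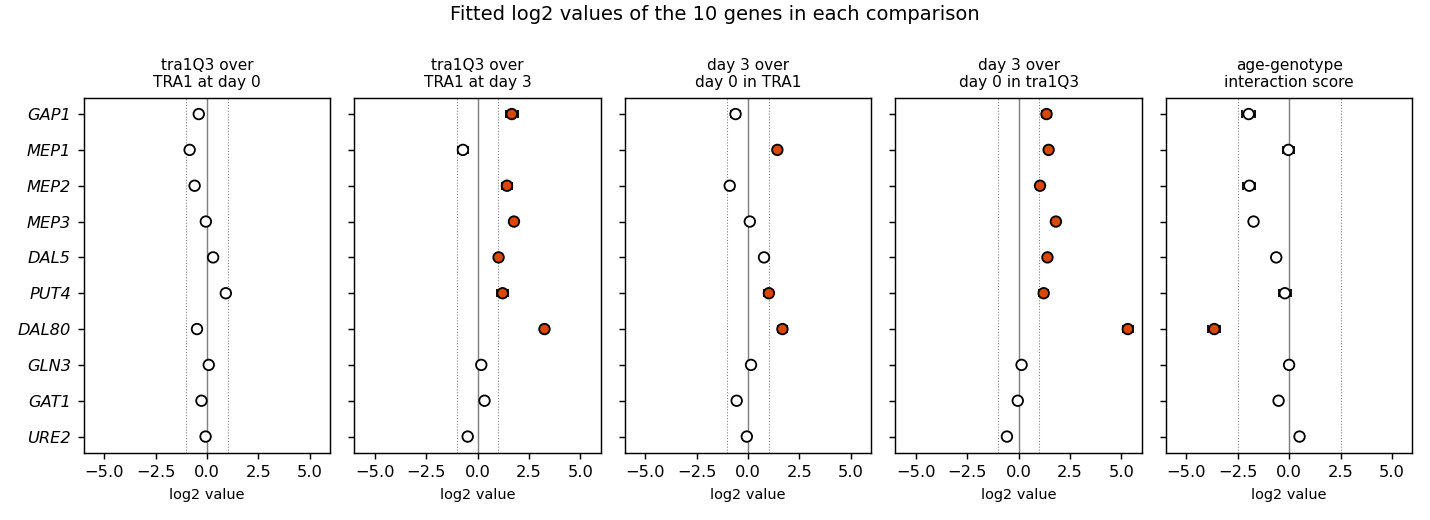
Fitted log2 values of the 10 genes in the 5 comparisons, 1 panel each, with bars of 1 SE that are often hidden by the point. Filled points were called, and dotted lines mark the size threshold, 1 for differences and 2.5 for the interaction score. *DAL80* reaches 3.26 between genotypes at day 3, 5.31 with age in *tra1Q3* and -3.64 in the score, while none of the 10 is called at day 0.

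Whether the change with age differed between genotypes was tested with the age-genotype interaction score, the log2 change with age in *TRA1* minus that in *tra1Q3*. A negative score thus means a larger rise, or a smaller fall, in *tra1Q3*. At an absolute score over 2.5, *DAL80* was the only one of the 10 genes called, at -3.64 (SE 0.30, adjusted p = 7.23e-07 by edgeR), beside 2.39% of genes called negative and 1.98% called positive (4.37% in both directions). *GAP1* (-1.97, SE 0.31, adjusted p = 1.32e-04), *MEP2* (-1.93, SE 0.29, adjusted p = 9.66e-05) and *MEP3* (-1.73, SE 0.11, adjusted p = 1.19e-07) were past a score of 1, as were 13.6% of genes on the negative side, 17.9% on the positive side and 31.5% on both. *DAL5* (-0.63, adjusted p = 0.00346), *GAT1* (-0.51, adjusted p = 0.00936) and *URE2* (0.51, adjusted p = 4.11e-04 by edgeR) passed on the adjusted p alone, which 68.7% of genes did. *MEP1* (-0.04, SE 0.25, adjusted p = 0.910), *PUT4* (-0.21, SE 0.30, adjusted p = 0.558) and *GLN3* (-0.00, SE 0.12, adjusted p = 0.995) did not pass. Without aged *TRA1* replicate 1 the score of *PUT4* was -0.57 (adjusted p = 0.0174), and without replicate 2 it was 0.011. The 3 ammonium permease genes therefore split: the test found a difference between genotypes in the age response of *MEP2* and *MEP3* and none in that of *MEP1*, whose SE leaves room for a difference of either sign.

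The order of levels was read per kilobase of coding sequence, as mean normalized counts per kilobase. In *TRA1* at day 0 it ran from *GAP1* (23455) through *MEP2* (6908), *MEP3* (3632), *URE2* (3602), *PUT4* (2901), *MEP1* (2174), *GAT1* (2092), *GLN3* (528) and *DAL5* (436) to *DAL80* (235). Only *MEP3* and *URE2* overlapped as neighbors in this order. In *tra1Q3* at day 0, *PUT4* (5472) stood second after *GAP1* (17772), and *DAL80* (169) was again last, with overlaps of *MEP3* with *URE2* and of *GLN3* with *DAL5*.

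In aged *TRA1* cells the order was *GAP1* (15383), *PUT4* (5859.5), *MEP1* (5841), *MEP3* (3853), *MEP2* (3723), *URE2* (3455), *GAT1* (1425), *DAL80* (748), *DAL5* (747) and *GLN3* (584). Neighbors from *PUT4* to *URE2* overlapped, as did *DAL80* and *DAL5*. In aged *tra1Q3* cells it was *GAP1* (45601), *PUT4* (12761), *MEP3* (12294), *MEP2* (9377), *DAL80* (6675), *MEP1* (3335), *URE2* (2315), *GAT1* (1687), *DAL5* (1418) and *GLN3* (619), with overlap of *PUT4* and *MEP3* alone. By this measure *DAL80* went from the lowest level of the 10 at day 0 to the fifth in aged *tra1Q3* cells. Both places may be too low because of its overlap with YKR033C.

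Aged *TRA1* replicate 2 was the lowest of its group for *GAP1*, *MEP1*, *MEP2*, *PUT4*, *DAL80*, *GLN3* and *GAT1*. Its level was 0.525 of the mean of replicates 1 and 3 for *GAP1*, 0.549 for *MEP1*, 0.559 for *PUT4* and 0.645 for *MEP2*. It was the highest of its group for *DAL5* and *URE2* and the middle one for *MEP3*. Without it the day 3 log2 differences were 1.41 for *GAP1*, 1.24 for *MEP2*, 1.74 for *MEP3*, 1.17 for *DAL5*, 0.98 for *PUT4* and 3.17 for *DAL80*, so that 5 of the 6 calls held. *MEP1* was then at -0.95.

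The scaling of libraries bears on these values. Under scaling to library totals the median log2 difference of all genes at day 3 was -0.31, with 702 genes called higher and 1463 lower, against 1018 and 968 with TMM. *DAL5* was then at 0.72 and *PUT4* at 0.95, so that 4 of the 10 genes were called, whereas *GAP1* (1.40), *MEP2* (1.16), *MEP3* (1.48) and *DAL80* (2.97) stayed past the threshold. Relative to that median, *DAL5* was at 1.03 and *PUT4* at 1.27. *GLN3* turned to -0.10 under this scaling, and *URE2* was at -0.78.

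Other lists of nitrogen genes, which also hold signaling, trafficking and sensor genes and are not 1 regulon, did not move as 1 block at day 3. *DUR3* is counted both in the allantoin and urea list and among the other permeases. Over all 6208 genes tested, 16.4% were called higher and 15.6% lower, or 32% in both directions. The lists below are short, and their counts were not tested against these shares. Among 8 genes of allantoin and urea use, 1 was called higher, *DAL3* (ureidoglycolate lyase, log2 2.33, adjusted p = 1.49e-05), and 1 lower, *DAL4* (allantoin permease, -1.13, adjusted p = 1.40e-04 by edgeR), with a median of 0.54. Among 5 other GATA factor and pathway activator genes, *GZF3*, the paralog of *DAL80*, was called higher (1.93, adjusted p = 5.38e-06) and *PUT3*, the activator of proline use, lower (-1.01, adjusted p = 4.57e-04), with a median of 0.16. *GZF3* rose from 1882 ± 121 normalized counts in aged *TRA1* to 6672 ± 382 (SD, n = 3 each) in aged *tra1Q3*.

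Among 9 other permeases 4 were called higher and 1 lower, with a median of 0.41. The largest values were those of *OPT2*, an oligopeptide transporter (2.04, adjusted p = 3.40e-06), and *CAN1*, the arginine permease (1.96, adjusted p = 2.28e-05), and the lowest that of *BAP2*, a branched-chain amino acid permease (-2.13, adjusted p = 1.71e-05 by edgeR). The can1-100 allele is shared by all groups. Among 11 nitrogen metabolism enzymes 2 were called higher and 4 lower, with a median of -0.66. *CAR1*, encoding arginase, stood at 3.04 (adjusted p = 5.70e-06). *PUT1*, encoding proline oxidase, had 33820.3 ± 1957 normalized counts in aged *tra1Q3* and 11965 ± 3277 in aged *TRA1* (SD, n = 3 each, adjusted p = 4.33e-04 by edgeR). Called lower were *GDH3* (glutamate dehydrogenase, -2.03, adjusted p = 7.92e-05) and *GLN1* (glutamine synthetase, -1.71, adjusted p = 8.98e-05 by edgeR).

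Of 12 genes of TORC1 and its phosphatases 3 were called higher and 1 lower, with a median of -0.25. *LST8*, a TORC1 subunit, stood at 2.52 (adjusted p = 4.79e-05) and *SIT4*, a phosphatase that acts on Gln3, at 2.49 (adjusted p = 3.18e-06), against *PPH22* (-1.01, adjusted p = 0.00148 by edgeR), a phosphatase gene whose windows were unique for 90.8%. Of 7 genes of permease trafficking and ammonium transport control, *NPR1*, a kinase that keeps the Mep permeases active, was called higher (1.18, adjusted p = 5.30e-05). *PAR32*, whose product inhibits Mep1 and Mep3, was called lower (-1.08, adjusted p = 4.83e-04 by edgeR), and it overlaps YDL172C on the other strand by 472 bases. Of 5 genes of the SPS amino acid sensor, *PTR3* was called higher (1.53, adjusted p = 5.92e-06) and none lower. All list medians at day 3 lay between those of the enzymes and of the allantoin genes, beside -0.02 over all genes and 1.12 for the 10 genes.

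**Figure D4:**
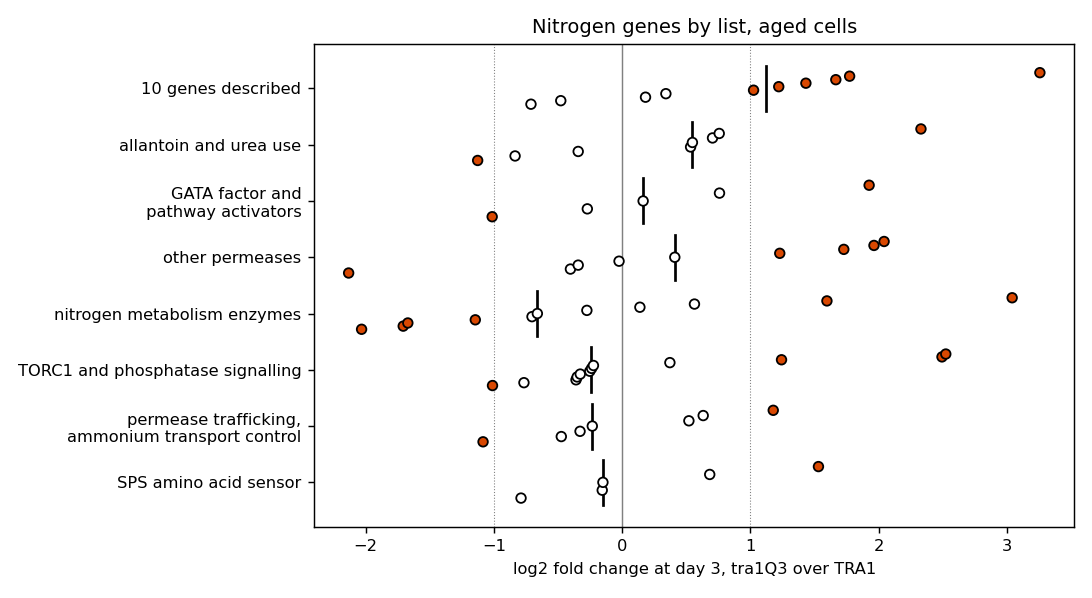
Log2 differences between *tra1Q3* and *TRA1* at day 3 for the 10 genes and for 7 other lists of nitrogen genes. Points are genes, filled where called, black bars are list medians and dotted lines mark the threshold of 1. The median of the 10 genes is 1.12, that of the allantoin and urea genes 0.54 and that of the enzymes -0.66.

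The genes with the pattern most like each of the 10 were found by the root mean square difference of their centered log2 levels over the 12 libraries, among 5705 genes. *MEP2* and *GAP1* were close to each other (0.234), with *GAP1* the second nearest gene to *MEP2* after *YME1* (0.233), and *FAR8* (0.175) and *MGL2* (0.189) nearest to *GAP1*. *MOD5* (0.115) and *UBC7* (0.126) were nearest to *MEP3*, *GSP2* (0.120) and *MIN6* (0.140) to *MEP1*, and *DYN3* (0.0739) and *RIP1* (0.0986) to *DAL5*. *COS3* (0.188) and *BAT2* (0.194) were nearest to *PUT4*. *APJ1* (0.259) and *SSA4* (0.347), genes of chaperones, were nearest to *DAL80*, though at larger distances than the nearest genes of the other 9. *HUL5* (0.0601) was nearest to *GLN3*. *OSH2* (0.0824) and *VPS54* (0.0932) were nearest to *GAT1*, and *IDI1* (0.0613) and *NOB1* (0.0791) to *URE2*.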

How the data were processed

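Poly(A)-selected RNA from the 12 libraries was sequenced for the authors by a company as paired-end reads. Reads were trimmed with Trimmomatic, aligned to the S288C genome with STAR (version 2.5.4b per the submitters' processing notes) and counted per gene with featureCounts (1.6.0), keeping unique alignments. Genome build R64 is named in those notes. The deposited values are raw counts, in a column of read pairs and a column of single reads per library, which were added (12.5% to 18.1% single reads). The labels call the libraries stranded, but the program line in the table sets no strand option, so strand was ignored. A row without a gene name (0.0851% of counts) was left out, and 6008 of 6691 genes matched the R64 annotation by locus tag.

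Counts were fitted with edgeR 4.0.16 (glmQLFit, glmQLFTest) in R 4.3.3 with TMM and at least 10 counts in at least 3 libraries, and p-values were adjusted by Benjamini-Hochberg over all genes tested. The 6 libraries of a day were fitted for each genotype comparison, and all 12 for age and interaction. SE was the log2 value over the square root of F. DESeq2 1.42.0, which the authors used in version 1.26.0, other scalings, no filter, read pairs alone, a replicate block and omission of each library were tried. The scripts were tested on simulated data. All 10 genes are named. From each list, up to 2 genes were named per direction, taken by size of the log2 value among those called at day 3. The genes and lists were chosen with earlier results of these data known. Of the genes with like patterns, 1 is not reported here. Markers of aged cells and mating type were also taken from lists. Precision rested on total counts of 20662125 to 28079682 and on the spread between replicates, which was larger than counting error. Sequences come from the RefSeq R64 genome. Other steps ran in Python (pandas 2.3.3, numpy 2.4.6), with plots in matplotlib 3.10.9.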

Additional observations from a re-analysis of the deposited data

Results flagged for a closer look

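The change with age differed between the genotypes, by the edgeR test of the difference itself, in 7 of the 10 genes, beside 68.7% of all genes at an adjusted p of 0.05, so the count is at the background and is no result about these genes. The score, the log2 change in *TRA1* minus that in *tra1Q3*, was -3.64 for *DAL80*, -1.97 for *GAP1*, -1.93 for *MEP2* and -1.73 for *MEP3*. It was -0.63 for *DAL5*, -0.51 for *GAT1* and 0.51 for *URE2*. Adjusted p ran from 1.19e-07 for *MEP3* to 0.00936 for *GAT1*.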

How the results depend on the processing

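Over 50 values of the 10 genes and 890 alternative values, 854 kept direction and side of the threshold, 12 dropped below it, 2 passed it and 22 changed sign, in 9 values that the comparisons had not called. At an adjusted p alone 7 genes passed at day 0, 7 with age in *TRA1* and 7 in the score, and a score over 1 gave 4. With *tra1Q3* day 0 replicate 1 alone 1 gene was past the thresholds at day 0, *DAL80*, with that library assumed to vary like the *TRA1* libraries, so this is no call at day 0. Leaving out 1 library gave 0 genes at day 0, 5 to 6 at day 3, 2 to 3 with age in *TRA1*, 6 to 7 in *tra1Q3* and 1 in the score.

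Under library totals, *GLN3* was at -0.10 at day 3 and 0.10 in the score, *URE2* at 0.12 with age in *TRA1*, *GAT1* at 0.022 with age in *tra1Q3* and *MEP1* at 0.051 in the score. Under upper-quartile scaling, *MEP3* was at 0.0028 at day 0, *URE2* at 0.030 with age in *TRA1* and *GAT1* at 0.075 with age in *tra1Q3*. Without a filter the score of *GLN3* was 0.0011, and with *tra1Q3* day 0 replicate 1 alone it was 0.079 and *URE2* was at 0.011 at day 0. Leaving out 1 library, *MEP3* ran from -0.012 to 0.16 with age in *TRA1*, and the scores of *MEP1* from -0.25 to 0.19, *PUT4* from -0.57 to 0.011 and *GLN3* from -0.060 to 0.079. In 1 fit of all libraries *DAL5* was at 0.92 at day 3. The causes were not tested.

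Median shifts of all genes reached 0.21 with age in *TRA1* and 0.26 in the score under library totals, and 0.12 and 0.10 with age in *TRA1* and *tra1Q3* under upper quartiles. Calls with age in *TRA1* then split 1551 higher to 1039 lower under library totals.

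Correlations of the deviations over 10 same-numbered pairs ran from -0.133 to 0.028, so no shared effect of the replicate number was seen. This cannot show whether same-numbered samples came from 1 culture, and the main fits did not pair them. With the replicate block 5 genes were called at day 3, with *DAL5* at 0.96, *MEP1* at -0.45 (adjusted p = 0.151) and *URE2* at -0.50 (adjusted p = 0.0631). The aged *TRA1* libraries are numbered 1, 2 and 3 and the aged *tra1Q3* libraries 2, 3 and 4. These day 3 values therefore rest on replicates 2 and 3 alone, with the outlying aged *TRA1* replicate 2 among them. *PUT4* was at 0.97 with age in *TRA1* and *GAT1* at 0.019 with age in *tra1Q3*.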
